A study of Mus musculus with 4 samples.

Results

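Retained intron transcripts are transcript models of a protein-coding gene that keep intronic sequence and carry no annotated open reading frame of their own. The set described here holds every transcript that GENCODE mouse release M21 types as retained_intron in a gene typed protein_coding, matched by transcript identifier without version. Of the 126782 transcripts in each file, 18748 belonged to the set, out of 21422 such models in that release. They lay in 8024 parent genes of 21945 protein-coding genes and made up 18748 of the 92886 listed transcripts of protein-coding genes. Their median length was 864 bases, and 4878 of them were estimated at 0 counts in all 4 libraries. A mean of at least 10 estimated counts was reached by 4051, and of at least 100 by 337.

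The libraries were made from rRNA-depleted total RNA of mouse naive CD4 T cells, sorted as TCRb+ CD4+ CD25- CD62Lhi CD44low, with a stranded low-input kit. The 2 WT libraries came from littermate controls with the alleles Btg1f/f Btg2f/f and no Cre. The 2 DKO libraries came from Btg1f/f Btg2f/f-CD4-Cre mice, in which Cre driven by Cd4 regulatory sequences removes the floxed parts in T lineage cells. Since the labels name pairs of mice, each library was taken as a separate animal, and no age, sex, treatment or time is given. All p-values measure the spread between these libraries only. BTG1 and BTG2 are adaptor proteins that bring the CCR4-NOT deadenylase to mRNA and are known for keeping resting T cells quiescent. The comparison asks whether the level of intron-containing transcripts, or their share of the parent gene, differed without both proteins.

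An intron that is not removed usually keeps the RNA in the nucleus, or exposes it to nonsense-mediated decay once it is exported and a ribosome meets a stop codon in the intron. Retained introns are known to be short and rich in G and C, and to be frequent in genes of splicing factors and in resting lymphocytes. Introns can also hold genes of small nucleolar RNAs (snoRNAs), which guide the modification of ribosomal RNA and are cut from the intron of a host gene, very often a ribosomal protein or translation factor gene.

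The sequences below belong to the members on which the results turn, and are taken from the GENCODE M21 transcript models on GRCm38, given 5′ to 3′ on the strand of the gene. The first set shows whole retained introns of abundant members or of members with the smallest p-values in the level test. Capitals mark the first and last bases, the splice signals that stay in the RNA. The introns lie between coding exons: intron 10 of Ncl (chr1:86352320-86352509, minus strand, 190 bases, 32.6% G+C), intron 4 of Calr (chr8:84844784-84844870, minus strand, 87 bases, 59.8%), intron 8 of Hsp90ab1 (chr17:45569127-45569239, minus strand, 113 bases, 51.3%) and intron 2 of Ppdpf (chr2:181187737-181187808, plus strand, 72 bases, 75% G+C). Intron numbers count from the 5′ end of the gene's transcript 201.
Ncl-202: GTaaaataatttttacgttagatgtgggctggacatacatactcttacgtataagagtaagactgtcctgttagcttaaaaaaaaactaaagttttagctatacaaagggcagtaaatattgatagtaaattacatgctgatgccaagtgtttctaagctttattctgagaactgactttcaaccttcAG
Calr-204: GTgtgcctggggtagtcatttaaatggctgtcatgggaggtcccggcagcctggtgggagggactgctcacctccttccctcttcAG
Hsp90ab1-203: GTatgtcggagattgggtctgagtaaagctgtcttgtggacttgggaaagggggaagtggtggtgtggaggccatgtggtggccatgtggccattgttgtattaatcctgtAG
Ppdpf-206: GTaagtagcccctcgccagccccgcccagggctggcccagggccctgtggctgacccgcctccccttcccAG

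The second set shows intron sequence that holds a snoRNA gene, in capitals. Intron 8 of Eif4a2 (chr16:23111264-23111502, plus strand, 239 bases) holds Gm26447 (129 bases), and intron 2 of Rps20 (chr4:3835010-3835191, minus strand, 182 bases, numbered on Rps20-203) holds Gm24016 (68 bases). Rpl5-204 begins inside intron 5 of Rpl5 and holds Snord21 (94 bases), shown with 20 bases on each side (chr5:107904535-107904668, plus strand).
Eif4a2-220: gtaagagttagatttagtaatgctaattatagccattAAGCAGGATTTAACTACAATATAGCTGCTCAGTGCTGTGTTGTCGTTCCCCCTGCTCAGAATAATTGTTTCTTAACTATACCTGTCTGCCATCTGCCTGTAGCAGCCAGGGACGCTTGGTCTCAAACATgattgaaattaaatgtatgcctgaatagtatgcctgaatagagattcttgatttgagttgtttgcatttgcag
Rps20-202: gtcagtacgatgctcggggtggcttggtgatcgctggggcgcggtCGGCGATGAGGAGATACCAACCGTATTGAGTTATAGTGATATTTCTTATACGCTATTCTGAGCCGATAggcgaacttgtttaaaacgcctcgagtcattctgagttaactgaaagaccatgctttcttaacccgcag
Rpl5-204: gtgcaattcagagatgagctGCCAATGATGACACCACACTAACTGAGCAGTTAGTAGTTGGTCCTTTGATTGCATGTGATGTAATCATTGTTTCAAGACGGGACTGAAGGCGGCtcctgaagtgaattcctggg

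The third set shows members that keep no whole intron and begin inside one. Their first exon reaches into the intron before a coding exon, and capitals mark the last 2 intron bases before that exon. The stretches are 184 bases of intron 1 of Rps26 (chr10:128626241-128626424, minus strand) and 76 bases of intron 4 of Rps7 (chr12:28633833-28633908, minus strand).
Rps26-202: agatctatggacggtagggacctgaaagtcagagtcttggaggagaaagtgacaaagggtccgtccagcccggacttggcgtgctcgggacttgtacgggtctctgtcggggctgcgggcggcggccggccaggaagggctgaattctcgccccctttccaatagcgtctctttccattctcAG
Rps7-205: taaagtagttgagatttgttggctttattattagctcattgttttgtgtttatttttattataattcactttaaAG

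Most members held no whole intron. Of 18748, 5548 (29.6%) held at least 1 whole intron of a protein_coding transcript of their gene, 1780 of them more than 1, and 13200 held none. The 7466 distinct whole introns had a median length of 277 bases (quartiles 120 and 723), against 1484 bases for the 117319 other introns of the same genes. Of them, 91.9% lay between coding exons, 97.9% of the 7391 with a sequence began with GT and ended with AG, and 86 began with GC. Their median G+C content was 51.3%. The median member had 353 bases outside every protein_coding exon of its gene, while 2616 members had under 100 such bases, so that few reads could tell them from the spliced transcripts. Estimated counts divide the reads that fit several transcripts, and the strand setting of the counting is not given in the sources used here, so reads from an antisense gene over the same bases cannot be told apart from theirs.

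The WT libraries held 14970076 and 13889894 estimated counts and the DKO libraries 16567226 and 17827631, of which 281588, 175668, 234156 and 322862 fell on members. At 3 counts, taken as the floor, a transcript had 0.140 to 0.264 CPM (counts per 1000000 of the TMM-scaled library). The targeted genes have no member. Btg2 had 1295 and 1067 counts with both genes intact and 5 and 7 in DKO, and Btg1 7378 and 5443 against 103 and 125; both fell by edgeR (log2 differences −8.18 and −6.40, adjusted p = 8.9e-07 and 1.5e-06). Summed T cell markers lay between 1348 and 1725 CPM in the 4 libraries and summed B cell, NK cell and erythroid markers at 1.66 CPM or less, with Ncr1 at 0 counts in all 4. Myeloid markers summed to 12.8 and 14.9 CPM in WT and 13.4 and 16.2 in DKO, and regulatory T cell markers (Foxp3, Il2ra, Ikzf2) to 8.03 and 9.12 against 19.6 and 32.2; the part of such cells in the results was not tested. In bulk RNA, fewer cells of a type and less RNA per cell cannot be told apart.

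WT replicate 1 stood apart in Malat1 and in intronic RNA. Malat1, a long non-coding RNA that stays in the nucleus, had 2488 CPM there, against 948 in WT replicate 2 and 1309 and 1748 in DKO. Neat1, another nuclear RNA, had 35.3 and 18.8 CPM in WT and 28.0 and 37.7 in DKO, and was highest in DKO replicate 2. Mean fragment lengths implied by the deposited effective lengths were 124 and 120 bases in WT and 133 and 142 in DKO. The medians of member groups below are therefore also given without WT replicate 1. The part of nuclear RNA or fragment length in the results was not tested.

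Retained intron transcripts took 4.84 and 3.55% of the counts of protein-coding genes in WT and 3.16 and 3.70% in DKO (4.19 ± 0.915% against 3.43 ± 0.382%, SD, n = 2 each). The groups overlapped: WT replicate 1 was the highest library, while WT replicate 2 lay between the DKO libraries. The difference of −0.76 percentage points was smaller than the SD within WT, and became −0.11 without WT replicate 1. On the TPM scale, which divides by length, the shares were 8.08 and 6.36% in WT and 6.04 and 6.55% in DKO. As a share of all counts of a library, which include other RNA classes, members took 1.88 and 1.26% in WT, against 1.41 and 1.81% in DKO, which differ by 0.039 percentage points in their means, so the sign turned with the denominator. With 2 libraries against 2, the smallest two-sided p an exact permutation test can give is 0.333, so no test was run. Transcripts of type processed_transcript, which also lack an open reading frame, took 2.07 and 1.73% against 1.62 and 1.77%, in the same order of libraries. Transcripts typed nonsense_mediated_decay took 20.3 and 14.9% against 20.9 and 17.7%.

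Within parent genes WT replicate 1 stood apart in the same way. Over 4733 parent genes with a mean of at least 50 counts, the median summed share of retained intron transcripts was 7.46 and 3.44% in WT, against 3.84 and 5.05% in DKO. It was the highest library, and WT replicate 2 the lowest. The median difference over genes was −0.60 percentage points, against a median SD of 2.81 between libraries of a group, and turned to 0.54 without WT replicate 1. DKO exceeded WT in every pair of libraries for 394 of these genes (8.32%) and was below it in every pair for 765 (16.2%), against 11.6 and 14.0% of genes for nonsense_mediated_decay and 10.4 and 13.1% for processed_transcript transcripts. For nonsense_mediated_decay transcripts the medians were 3.65 and 2.69% against 3.06 and 3.27% (2342 genes), and for processed_transcript 1.97 and 0.947% against 1.24 and 1.56% (3626 genes), with a median difference of 0 in both.

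**Figure D1:**
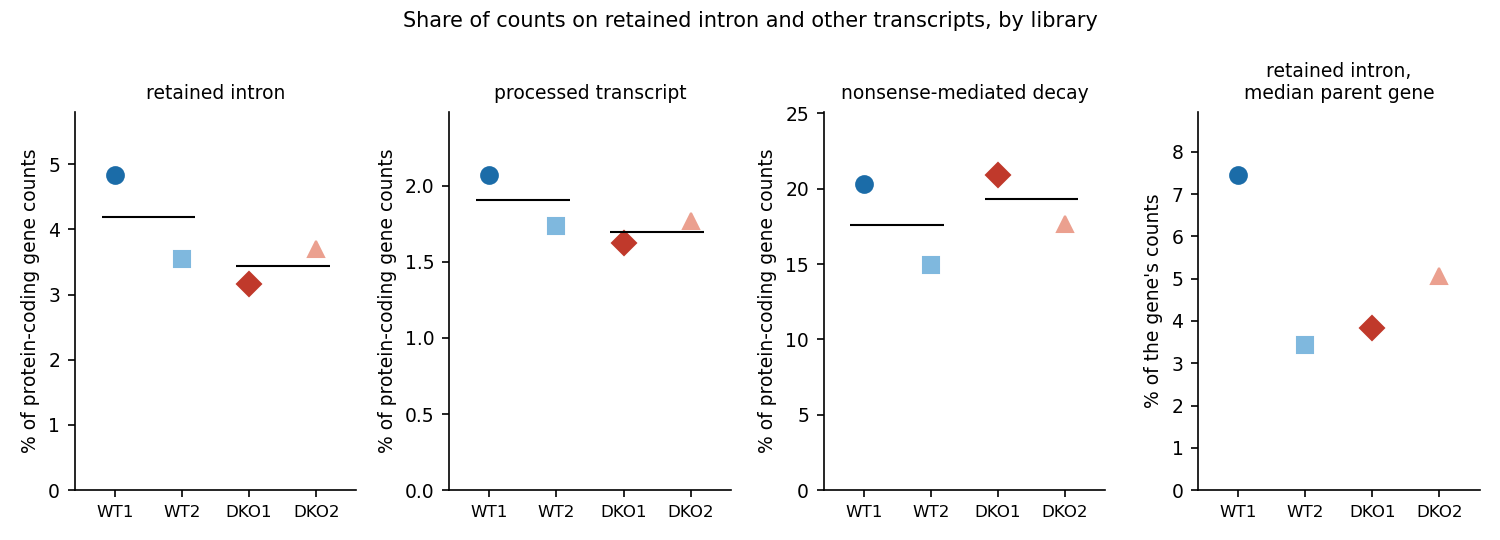
Each point is 1 library (WT1, WT2, DKO1, DKO2). The first 3 panels give the percent of protein-coding gene counts on retained intron, processed and nonsense-mediated decay transcripts (line: group mean of 2), and the last panel the median percent of a parent gene's counts on its retained intron transcripts. WT replicate 1 is the highest library in the panels for retained intron and processed transcripts and in the last one, at 4.84%, 2.07% and 7.46%.

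The range over libraries was widest for members with the most intron. Members with 1000 or more bases outside coding exons took 1.98 and 1.03% of protein-coding gene counts in WT and 1.01 and 1.40% in DKO. For members with under 100 such bases the shares were 0.835 and 0.890% in WT and 0.716 and 0.693% in DKO. Both DKO libraries lay below both WT libraries in this sum. Of the 460 tested members of this class, 19.3% lay below and 17.6% above without overlap, against 16.3% and 18.1% of all transcripts. The class holds the abundant Rpl13a-213, Rps16-203 and Rps7-205 (52, 68 and 76 such bases), each lower in both DKO libraries. It also holds Calr-204 (87 such bases), which overlapped. Their part in the sum was not tested. The intron-rich members followed Malat1 in the order of their 2 highest libraries, WT replicate 1 and DKO replicate 2. The median log2 difference in level between DKO and WT went from −0.09 in the class with the fewest such bases (460 tested) over −0.16 and −0.23 to −0.29 in the class with the most (2113 tested). Without WT replicate 1 the last class had a median of 0.52 and the first −0.16, and without WT replicate 2 −0.73 and 0.03.

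**Figure D2:**
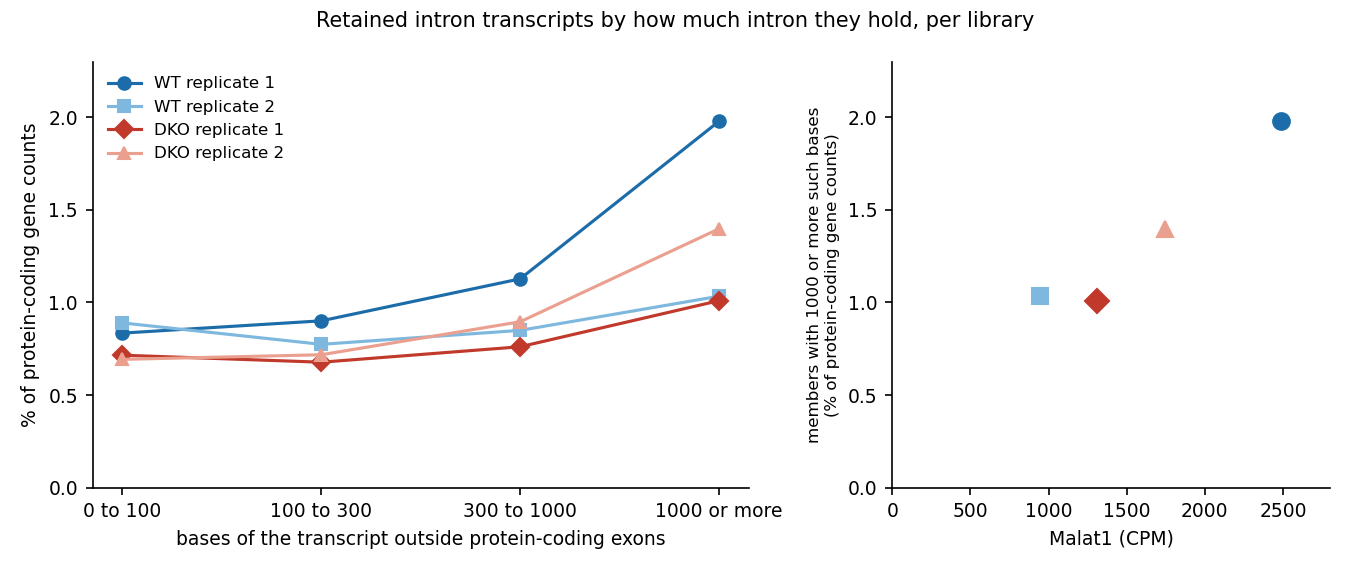
Left, percent of protein-coding gene counts on retained intron transcripts, in classes of how many of their bases lie outside protein-coding exons, 1 line per library. Right, the share of the class with 1000 or more such bases against Malat1 in CPM, 1 point per library. WT replicate 1 stands at 1.98% and 2488 CPM, and WT replicate 2 and DKO replicate 1 at 1.03 and 1.01%.

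Single abundant members with long intronic stretches were mostly highest in WT replicate 1. Of 123 members with a mean of at least 100 counts and 1000 or more bases outside coding exons, 90 were highest in WT replicate 1 and 70 lowest in WT replicate 2, both together in 58. Another 18 were highest in WT replicate 2, 2 in DKO replicate 1 and 13 in DKO replicate 2. Of 72 members of that abundance with under 100 such bases, 12 were highest in WT replicate 1 and 28 in WT replicate 2. Satb1-212, from the gene of a chromatin organiser of T cells, has 4702 bases outside coding exons and had 43.2 and 18.7 CPM in WT and 23.8 and 37.9 in DKO. Ptprc-201, from the gene of the surface phosphatase CD45, had 37.7 and 14.7 CPM in WT and 18.1 and 22.4 in DKO. Hnrnpa2b1-213, from a gene of an RNA-binding splicing regulator, had 37.8 and 16.4 against 16.7 and 24.1 CPM. In each of these WT replicate 1 was the highest and WT replicate 2 the lowest library, so the DKO libraries lay between them. Their log2 differences were −0.01, −0.37 and −0.41, each smaller than its standard error of 0.46 to 0.48. Others did not follow: Rps3-204, with 2360 such bases, was highest in WT replicate 2, and Eif5b-202, with 1668, had 64.3 and 63.2 CPM in WT, against 69.1 and 59.6 in DKO.

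Level was tested for 27379 transcripts, 4396 of them members, by edgeR's quasi-likelihood F test with Benjamini-Hochberg adjustment over all. No member passed at an adjusted p of 0.05 in either direction; the background was 0.0% higher and 0.0073% lower, which are 2 transcripts, of Btg1 and Btg2. At an unadjusted p below 0.05, 36 members were higher and 64 lower in DKO (0.819% and 1.46%), against 2.62% and 2.39% of all transcripts tested. With total counts as the scaling, 68 members were higher and 30 lower, against 2214 and 376 of all 27379 transcripts tested. Without WT replicate 1 the median log2 difference of the members was 0.36, where all transcripts had 0.04. Without WT replicate 2 these medians were −0.58 and 0.01. DESeq2 called 4 members higher and 10 lower, with 0.409% and 0.577% of all transcripts, and 8 of those 14 members were at 0 in a group. The groups did not overlap for 434 members with DKO above (9.87%) and 727 with DKO below (16.5%), against 18.1% and 16.3% of all transcripts. Of the 4396, 36 were at 0 in both libraries of a group, and 488 had a mean under 10 counts.

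The median log2 difference of the tested members was −0.24, against −0.02 for all transcripts, 0.06 for protein_coding, −0.09 for nonsense_mediated_decay and −0.14 for processed_transcript transcripts. It depended on 1 library: without WT replicate 1 it was 0.36, and without WT replicate 2 −0.58, over 4362 and 4377 of these members. With total counts as the scaling it was 0.06, where all transcripts had 0.29. Of 5792 parents tested the median was 0.01, and edgeR called none, against 0.0544% of all 12863 genes higher and 0.07% lower. At an unadjusted p below 0.05, 233 parents were higher and 139 lower, against 3.82% and 4.35% of all genes. DESeq2 called 20 parents higher and 14 lower, against 0.428% and 1.03% of all genes. The spread between libraries was wide at the level of transcripts, with a common biological coefficient of variation of 0.629, against 0.220 for genes.

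The share of the parent gene was tested for 21051 transcripts, 4002 of them members, as the interaction of transcript and genotype in edgeR. No member passed in either direction (background 0.0% higher and 0.0% lower). At an unadjusted p below 0.05, 33 members were higher and 40 lower (0.825% and 0.9995%), against 1.79% and 1.3% of all transcripts. Without WT replicate 1 the median log2 difference of the members in share was 0.28, where all transcripts had 0.04. Without WT replicate 2 these medians were −0.72 and −0.09. DESeq2 called 15 higher and 6 lower (background 0.912% and 0.546%), 20 of which were at 0 in a group; the exception was Ptbp1-210. Groups did not overlap for 378 members above and 659 below (9.45% and 16.5%), against 16.1% and 15.4%. With all 4 libraries the median was −0.19, against 0.01 for all transcripts.

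**Figure D3:**
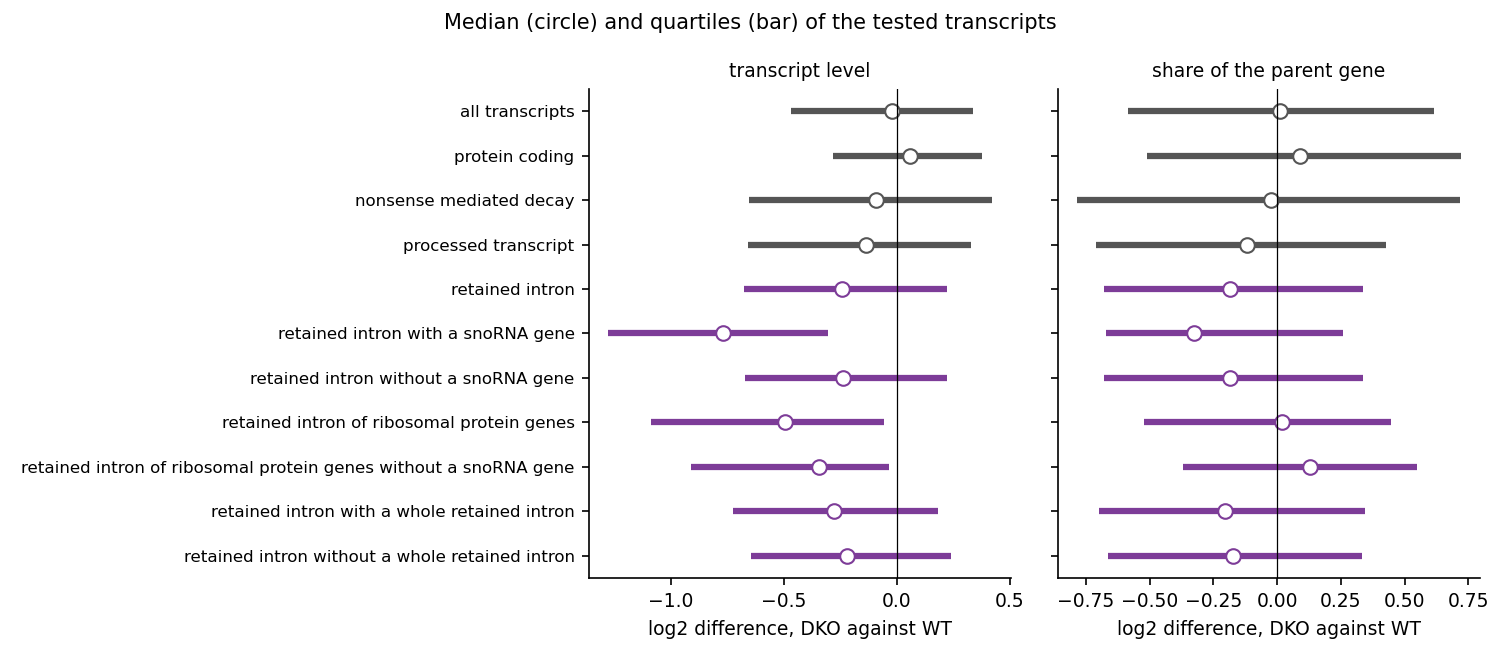
Median (circle) and quartiles (bar) of the log2 difference between DKO and WT, for transcript level (left) and share of the parent gene (right), over the tested transcripts of each type (grey) and of groups of retained intron transcripts (purple). The level median is −0.77 for members that hold a snoRNA gene and −0.24 for those that do not.

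A few members held much of the count. The 10 most abundant took 14.6 and 25.1% of all member counts in WT and 18.7 and 13.6% in DKO, and 8 of the 10 come from ribosomal protein genes. Ncl-202 led the set. Its gene codes for nucleolin, a nucleolar protein of ribosome production. It had 5461 and 6423 estimated counts in WT, against 9562 and 11130 in DKO, which are 388 and 565 CPM against 574 and 520. It took 84.3 and 90.0% of the counts of Ncl in WT and 88.3 and 87.4% in DKO. WT replicate 1 was the lowest and the groups overlapped in level and in share; the log2 difference was 0.20 (SE 0.24) in level and 0.06 (SE 0.43) in share. The protein_coding model Ncl-201 is 8202 bases long with a last exon of 5978 bases, whereas Ncl-202, with 2 whole introns, ends in a last exon of 202 bases. Its share gives the part of the estimated counts of Ncl assigned to that annotated model. How often its introns were kept was not tested.

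Calr-204 comes from the gene of calreticulin, a chaperone of the endoplasmic reticulum, and keeps the 87-base intron shown above. It had 80.4 and 137 CPM in WT and 135 and 122 in DKO, or 43.1 and 48.4% against 46.3 and 43.8% of Calr. The libraries overlapped in both measures, with log2 differences of 0.24 (SE 0.29) and −0.04 (SE 0.38).

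The ribosomal protein members among the 10 were Rpl13a-213, Rps3-204, Rps16-203, Rps7-205, Rpl5-204, Rpl3-206, Rpl21-204 and Rps26-202. All had log2 differences below 0, from −0.55 for Rps16-203 to −1.43 for Rpl5-204. The groups did not overlap in 7 of the 8, Rps3-204 being the exception, against 16.3% of all transcripts with DKO below. Of the 60 tested parent genes of ribosomal protein members, 43 also lay below without overlap and 0 above. Of all 12863 genes, 2415 lay below and 2555 above. Rpl13a-213 had 562 and 733 CPM in WT and 482 and 354 in DKO. Its share of Rpl13a overlapped, at 41.0 and 36.6% against 37.6 and 34.9%. Rps7-205 had 299 and 310 CPM against 198 and 156 (log2 difference −0.78, SE 0.18, adjusted p = 0.83 by edgeR and 0.026 by DESeq2). Rpl3-206 had 190 and 204 CPM against 129 and 101, and Rpl21-204 195 and 178 against 122 and 85.6.

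Rps26-202 was the member of these with the least spread within groups. It had 202 and 193 CPM in WT and 86.7 and 88.6 in DKO, with no overlap. The log2 difference was −1.17 (SE 0.14), with an adjusted p of 0.81 by edgeR and 3.2e-10 by DESeq2. Its parent gene differed by −0.59. The share of Rps26 was 62.0 and 43.1% in WT, against 33.4 and 34.3% in DKO, also without overlap, at a log2 difference of −1.12 (SE 0.53, unadjusted p = 0.105). In the same libraries the spliced Rps26-201 had 1725 and 2885 counts in WT, against 2867 and 3617 in DKO, lowest in WT replicate 1.

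**Figure D4:**
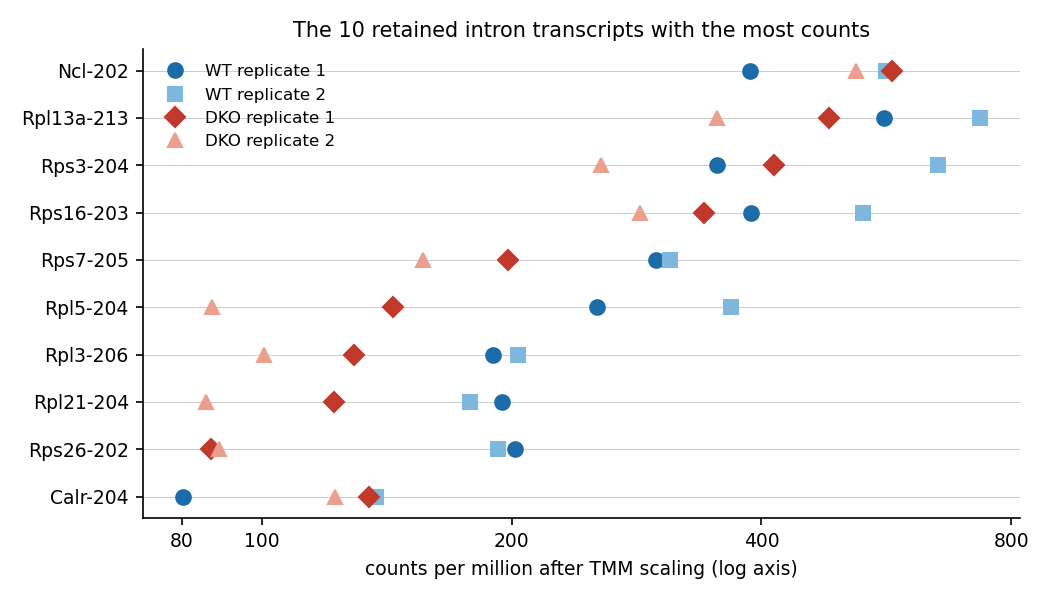
CPM after TMM scaling (log axis) of the 10 retained intron transcripts with the most counts, 1 point per library. Ncl-202 and Calr-204 overlap between the groups with WT replicate 1 lowest, Rps3-204 overlaps, and the other 7 have both DKO points below both WT points.

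Over all 166 members of 60 cytosolic ribosomal protein genes, 94 were tested, with a median log2 difference of −0.50. At an unadjusted p below 0.05, 0 were higher and 19 lower (20.2%), against 2.62% and 2.39% of all transcripts. Both DKO libraries lay below both WT libraries for 36 (38.3%) and above for 6 (6.38%), against 16.3% and 18.1%. The median was −0.53 without WT replicate 1, and −0.17 with total counts as the scaling. The median of their share of the parent gene was 0.02 (0.29 without WT replicate 1 and −0.29 without WT replicate 2). At that p 1 was higher and 2 lower in share, against 1.79% and 1.3% of all transcripts. Without overlap, 17 (18.9%) lay above and 15 (16.7%) below, near the 16.1% and 15.4% of all transcripts. The 60 parent genes had a median of −0.52. The median of the members was thus close to that of their parent genes, and the median share close to 0.

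Members that hold a snoRNA gene were 60, in 36 parent genes, with 55 snoRNA genes on their strand; 46 were tested in level. Their median log2 difference was −0.77, against −0.24 for the 4350 tested members without one. It was −0.55 without WT replicate 1, with 30 of 46 below 0. At an unadjusted p below 0.05, 0 were higher and 12 lower (26.1%), against 2.62% and 2.39% of all transcripts, and the groups did not overlap for 19 below (41.3%) and 1 above (2.17%), against 16.3% and 18.1%. In share of the parent gene, 44 tested members had a median of −0.33, against −0.19 for members without a snoRNA gene. It was 0.09 without WT replicate 1. Of the 44, 26 lay below 0. At that p 0 were higher and 3 lower in share, against 1.79% and 1.3% of all transcripts. Their 35 tested parent genes had a median level difference of −0.44. Of the 17 with a mean of at least 100 counts, 16 had a difference below 0 and 11 had no overlap, all below, with a median of −0.88, against −0.08 for 320 other members of that abundance, of which 13.4% lay above and 14.4% below without overlap. This median lay between −1.04 and −0.68 with each library left out in turn, and was −0.55 with total counts as the scaling, where all transcripts had a median of 0.29. The groups share parents: 28 of the 60 members are from ribosomal protein genes. In other genes, 21 tested members with a snoRNA gene had a median of −0.46, and ribosomal protein members without a snoRNA gene −0.34.

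The snoRNA genes inside members also lay lower in DKO. Of 36 tested at the gene level all had a difference below 0, with a median of −1.81, and 193 of all 196 tested snoRNA genes lay below 0, with a median of −1.64; none of the 36 passed by edgeR at an adjusted p of 0.05. The median of the 36 was −2.21 without WT replicate 1 and −0.84 without WT replicate 2, with 33 below 0. WT replicate 2 held the most snoRNA. Snord21, inside Rpl5-204, had 136 and 384 CPM in WT and 91.7 and 40.5 in DKO. A read from the snoRNA sequence fits both the snoRNA gene and the member that holds it, and how such reads were divided was not tested.

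Eif4a2-220 showed the largest log2 difference among members with a mean of at least 100 counts over the 4 libraries. Eif4a2 codes for an RNA helicase of translation initiation, and 1 of its introns, shown above, holds the snoRNA gene Gm26447. Eif4a2-220 had 916 and 823 counts in WT, against 79.4 and 260 in DKO, or 65.1 and 72.4 CPM against 4.77 and 12.2. The log2 difference was −3.02 (SE 0.49; adjusted p = 0.81 by edgeR and 2.2e-06 by DESeq2), and the share of Eif4a2 was 30.3 and 32.7% in WT, against 3.23 and 9.90% in DKO, with no overlap. Eif4a2-206 keeps the same intron and did not share the pattern, with 37.7 and 45.2 CPM against 50.1 and 24.3 and a log2 difference of −0.16 (SE 0.38). Since both models hold the same intron, the values of Eif4a2-220 do not stand for that intron alone.

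Rpl5-204 had 253 and 368 CPM in WT and 144 and 86.9 in DKO (log2 difference −1.43, SE 0.34, adjusted p = 0.83 by edgeR and 0.0092 by DESeq2). Its share of Rpl5 was 73.2 and 80.9% against 68.0 and 56.8%, while the parent gene itself differed by −1.15. Rps20-202 had 147 and 173 CPM against 96.8 and 71.7 (log2 difference −0.93, SE 0.22), while its snoRNA gene Gm24016 was at or near 0 in all 4 libraries. Rplp2-205, from the gene of an acidic ribosomal stalk protein, had 27.8 and 25.9 CPM in WT and 9.43 and 3.31 in DKO (log2 difference −2.08, SE 0.54), with its parent at −0.40.

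The other snoRNA-holding members of this abundance differed in how closely they followed their genes. Rack1-206, from the gene of a scaffold protein on the small ribosomal subunit, holds 4 whole introns with 3 snoRNA genes and had 13.2 and 16.5 CPM in WT, against 6.83 and 6.32 in DKO (log2 difference −1.18, SE 0.25, adjusted p = 0.81 by edgeR), with its parent at −0.64. Rpl6-207, 707 of whose 714 bases lie outside coding exons, had 26.3 and 44.4 CPM, against 19.7 and 11.1 (log2 difference −1.20, SE 0.41), with its parent at −0.44. In both, the groups did not overlap in level or in share. Rpl12-207 had 41.3 and 59.8 CPM, against 24.6 and 16.3 (log2 difference −1.30, SE 0.31). Its share of Rpl12 overlapped, at 27.8 and 38.2% against 28.0 and 24.4%, and its parent lay at −0.99. Rpl13-202 was high in WT replicate 2 alone, with 18.3 and 97.4 CPM in WT and 25.4 and 9.74 in DKO, and so was its snoRNA gene Snord68, with 5.72 and 21.05 against 4.18 and 0.974 CPM. Taf1d-203, from a gene of an RNA polymerase I transcription factor, holds 5 snoRNA genes, none above 1 CPM in any library, and followed the intron-rich members instead, with 21.01 CPM in WT replicate 1 against 10.9 to 13.9 in the other 3 libraries.

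In some host genes outside the ribosome the parent lay near 0, and their members differed. Nop56-212, from the gene of a core protein of box C/D snoRNA particles, had 8.14 and 11.8 CPM against 5.88 and 4.96 (log2 difference −0.88, SE 0.33), with its parent at 0.01. Hspa8-208, from the gene of the constitutive heat shock chaperone HSC70, overlapped in level (log2 difference −0.46, SE 0.37) with its parent at 0.07. Eif4a1-202 alone of the 17 had a difference above 0, at 0.04 (SE 0.67), with its parent at −0.09.

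**Figure D5:**
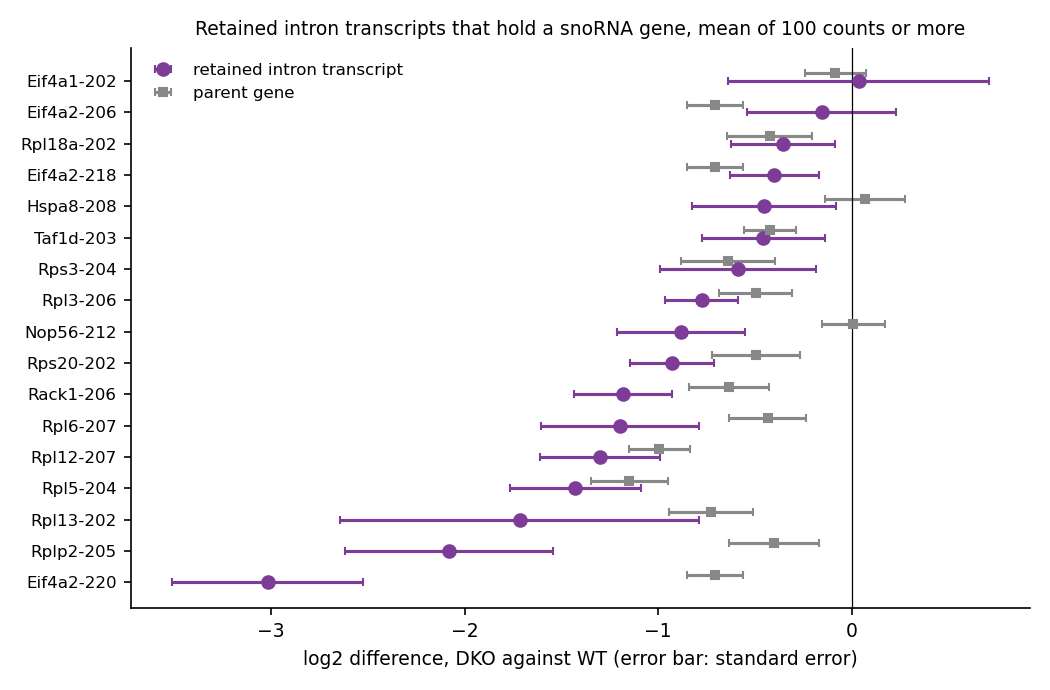
Log2 difference between DKO and WT (error bar: standard error) of the 17 retained intron transcripts that hold a snoRNA gene and have a mean of at least 100 counts (circles), and of their parent genes (squares). The transcripts run from −3.02 for Eif4a2-220 to 0.04 for Eif4a1-202; the parents of Hspa8-208 and Nop56-212 lie at 0.07 and 0.01.

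Some members were the main model of their gene. Of the 337 members with a mean of at least 100 counts, 26 took over 50% of their gene, a group chosen after its values were seen. In 15 of the 26 (57.7%) the nearest annotated end of a protein_coding transcript lay more than 100 bases downstream, as for Ncl-202. This held for 57.6% of the 337 and for 68.8% of all members, so it was not particular to the 26. A whole intron was held by 14 of the 26, against 29.6% of all members. Il17ra-203, from the gene of the interleukin 17 receptor A, took 77.8 and 79.96% in WT and 81.2 and 80.7% in DKO, with 56.2 and 59.5 against 78.9 and 78.4 CPM. Both measures were higher in each DKO library than in each WT library (log2 difference 0.44 in level, adjusted p = 0.93 by edgeR), and the parent gene differed by 0.39. Tap2-202, from a peptide transporter gene of antigen presentation, took 80.5 and 73.3% against 79.8 and 72.4%. Eif5b-202, from a translation initiation factor gene, took 67.4 and 64.8% against 65.1 and 63.9%. Rsf1-206, from a chromatin remodelling gene, took 70.0 and 73.4% against 64.2 and 63.1%. Over the 26, the median log2 difference was 0.00 in level and −0.06 in share. Without overlap, 5 lay above and 7 below in level, against 18.1% and 16.3% of all transcripts. In share, 7 lay above and 5 below, against 16.1% and 15.4%.

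Many of the smallest p-values in the level test belonged to members at or near 0 in a whole group. Rasal3-209, from the gene of a Ras GTPase activator of T cells, had 0.496 and 0 counts in WT, against 109 and 179 in DKO, at least 64.2-fold higher against the floor over the WT group, with its parent at −0.05. Snrnp70-215, from the gene of the U1 snRNP 70K protein, had at most 0.0113 counts in WT, against 60.0 and 73.2 in DKO, at least 29.7-fold higher. Naa30-204, from an N-terminal acetyltransferase gene, had 0 in WT after rounding and 32.7 and 57.4 in DKO, at least 20.1-fold higher. Usp16-203, from a deubiquitinase gene, had 0 in WT and 44.4 and 41.2 in DKO, at least 19.0-fold higher. Their adjusted p was 0.81 by edgeR, and 4.4e-05, 0.0058, 0.044 and 0.047 by DESeq2.

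In the other direction, Eps15l1-206, from an endocytosis adaptor gene, had 109 and 62.3 counts in WT and 0 in both DKO libraries, at least 85.3-fold lower, with its parent at −0.01. It took 24.2 and 14.6% of Eps15l1 in WT. Ppdpf-206, whose 72-base intron is shown above, had 32.1 and 30.2 counts against 0 and 0, at least 31.1-fold lower. Polr3gl-202, from an RNA polymerase III subunit gene, had 38.1 and 16.1 against 0 and 0, at least 27.0-fold lower. The spliced Ppdpf-202 went the other way, with 0 and 11.9 counts in WT, against 105 and 147 in DKO; the parent gene differed by −0.15. Adjusted p-values were 0.81 by edgeR, and 2.6e-05, 0.016 and 0.044 by DESeq2. Flcn-205, from the folliculin gene, had 72.9 and 23.0 counts against 0 and 0, at least 47.9-fold lower, and had taken 41.6 and 15.0% of Flcn in WT, with the parent gene at 0.24.

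Switches of this size between 2 single libraries were found within each genotype. A member at or below 0.5 counts in 1 library and at or above 20 in the other was found 265 times between the 2 WT and 219 times between the 2 DKO libraries. Both WT libraries at or below 0.5 and both DKO at or above 20 occurred for 9 members, and the reverse for 3. That rule is stricter, since all 4 libraries must meet it, so the counts within and between groups are not alike. Xrn2-204, from a nuclear exonuclease gene, is an example within WT, with 60.1 and 0 counts, against 48.6 and 37.3 in DKO. An estimate of 0 can come from how reads were divided between overlapping models. Over all transcripts the numbers were 2007 and 1768 within groups and 150 and 43 between them.

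Among members that were not near 0, Hsp90ab1-203 had the smallest p in the higher direction. Its gene codes for the cytosolic chaperone HSP90 beta, and its 113-base intron is shown above. It had 3.70 and 3.63 CPM in WT and 9.61 and 10.3 in DKO, with no overlap (log2 difference 1.44, SE 0.29; adjusted p = 0.81 by edgeR and 0.17 by DESeq2). Its share of Hsp90ab1 was 0.545 and 0.379% against 0.891 and 1.21%, while the parent gene differed by 0.22. Ptbp1-210, from the gene of the polypyrimidine tract-binding splicing repressor, holds 3 whole introns and had 3.12 and 2.08 CPM in WT and 0.279 and 0.210 in DKO. Its share of Ptbp1 was 2.94 and 1.85% against 0.263 and 0.191%, with no overlap, at a log2 difference of −3.42 (SE 0.58; adjusted p = 1 by edgeR and 0.021 by DESeq2). Rpl4-203, which holds Snord16a, took 0.216 and 0.311% of Rpl4 against 0.0484 and 0.0648% (log2 difference −2.17, SE 0.41, adjusted p = 1 by edgeR). Tubb5-204, from a beta-tubulin gene, and Dkc1-209, from the gene of the pseudouridine synthase dyskerin, were at 0 in WT and had 16.7 and 26.8, and 29.97 and 33.1, counts in DKO.

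Genes of the splicing machinery are a known site of intron retention. Of 67 members in genes of SR proteins and their regulators, 47 were tested, with a median log2 difference of −0.45. At an unadjusted p below 0.05 by edgeR, 0 were higher and 1 lower. Of all transcripts tested, 2.62% were higher and 2.39% lower at that p. Srsf5-209, from a gene of a serine/arginine-rich splicing activator, had 30.7 and 6.09 CPM in WT and 10.8 and 14.2 in DKO, or 14.3 and 3.26% of Srsf5 against 7.07 and 9.86%. The 2 WT libraries were the highest and the lowest. Tra2a-203, from another splicing activator gene, took 41.3 and 33.5% of Tra2a against 43.7 and 52.7%, where both DKO libraries lay above (log2 difference in share 0.64, SE 0.58). Rsrp1-204, from a gene of an arginine/serine-rich protein, took 26.2 and 26.6% against 24.1 and 34.4%.

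Kinases that phosphorylate SR proteins had 23 tested members, with a median of −0.38 in level and 0.12 in share. At an unadjusted p below 0.05 in level, 0 differed in either direction, against 2.62% higher and 2.39% lower of all transcripts. Clk1-204, whose gene is a textbook case of introns held in the nucleus until needed, had 40.4 and 10.3 CPM in WT and 17.2 and 21.5 in DKO, or 24.4 and 10.6% of Clk1 against 17.8 and 20.5%. The WT libraries again enclosed the DKO libraries. Prpf4b-206, from a splicing kinase gene, took 35.8 and 29.4% against 38.1 and 34.8%. In 15 genes listed for detained introns, of which 14 matched, 31 tested members had a median of −0.56 in level and −0.06 in share, with 0 higher and 1 lower in level at that p.

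Genes of hnRNP and related regulators had 83 tested members with a median of −0.33, and spliceosome genes 49 with −0.45. At an unadjusted p below 0.05 in level, 1 hnRNP member was higher and 3 lower. Among spliceosome members 1 was higher and 1 lower. The background at that p was 2.62% higher and 2.39% lower of all transcripts. Ddx5-202, from an RNA helicase gene, had 48.9 and 17.3 CPM in WT and 16.9 and 16.3 in DKO. WT replicate 1 stood well above the other 3 libraries, which lay close together (log2 difference −1.0, SE 0.52). Sf3b1-203, from a gene of the U2 snRNP, had 22.5 and 7.68 CPM against 8.48 and 11.9, again highest in WT replicate 1. Prpf38b-202, from a tri-snRNP gene, held an even share in all libraries, 23.3 and 23.9% of Prpf38b in WT and 23.7 and 23.6% in DKO. Snrnp200-204, from the gene of the U5 helicase BRR2, took 13.9 and 13.8% against 12.1 and 13.2% (log2 difference in share −0.16, SE 0.39).

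Deadenylation genes, in which BTG1 and BTG2 act, had 22 tested members of 44, with a median of −0.39. At an unadjusted p below 0.05 in level, 1 was higher and 0 lower, against 2.62% and 2.39% of all transcripts. Cnot3-205, from a gene of a CCR4-NOT subunit, had 6.76 and 1.07 CPM in WT and 10.6 and 17.7 in DKO, or 12.4 and 1.82% of Cnot3 against 18 and 29.8%. The groups did not overlap, yet the WT libraries differed widely and the log2 difference of 1.84 had an SE of 0.89. Cnot1-207, from the gene of the scaffold of the complex, had 3.92 and 3.72 CPM against 10.5 and 5.44 (log2 difference 1.07, SE 0.45). Pabpc1-203, from the gene of the cytoplasmic poly(A)-binding protein, had 9.46 and 3.94 CPM against 4.29 and 5.16, with overlap. Genes of nonsense-mediated and other RNA decay had 25 tested members with a median of −0.37 (0 higher and 1 lower). The lower one was Skiv2l-209, from a helicase gene of the cytoplasmic exosome pathway, which took 28.0 and 19.2% of Skiv2l in WT and 8.01 and 10.9% in DKO (log2 difference in level −1.20, SE 0.43, adjusted p = 0.96 by edgeR).

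T cell receptor and surface genes had 51 tested members with a median of −0.23 (1 higher and 1 lower). T cell transcription factor genes had 42 with −0.28 (0 and 0). Brackets here count members at an unadjusted p below 0.05 in level, against 2.62% higher and 2.39% lower of all transcripts. Lck-205, from the gene of the proximal T cell receptor kinase, departed from the library order of the intron-rich members, with 10.02 and 23.4 CPM in WT and 15.0 and 16.0 in DKO. It has 130 bases outside coding exons. Lef1-206, from a transcription factor gene of naive T cells, had 13.8 and 6.77 CPM against 7.98 and 11.1, with WT replicate 1 highest. Translation factor genes had 35 tested members with a median of −0.62 (0 and 3), among them Eif4a2-220. Chromatin regulator genes had 68 with −0.14 (2 and 1), and cell cycle, p53 and apoptosis genes 29 with −0.42 (0 and 0). Median shares of these 5 groups were −0.20, −0.21, −0.24, −0.19 and −0.18, and no member of any list passed by edgeR. The medians stand beside −0.24 in level and −0.19 in share for all members. Without WT replicate 1 the level medians of the 12 gene lists were above 0, from 0.15 for cell cycle genes to 0.70 for deadenylation genes, except that of translation factor genes, at −0.19. Without WT replicate 2 all 12 were below 0, from −0.98 for genes listed for detained introns to −0.37 for chromatin regulator genes. All 12 were also below 0 with each DKO library left out in turn.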

How the data were processed

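Total RNA depleted of rRNA was sequenced in 2 WT and 2 DKO libraries. The authors estimated transcript abundance with kallisto, per the submitters' processing notes, which name mm10 and GRCm38. Its version, the annotation release and the strand setting were not given in the sources used here. As deposited, the estimated counts are neither whole nor scaled, and the deposited TPM values are scaled by effective length and to a fixed sum per library, per the file headers. Transcript types, exons, introns and snoRNA genes came from GENCODE M21 (GRCm38), to which 125182 of 126782 transcripts (98.7%) matched by identifier; of the members, 99.3% had the same length in both. Sequences were read from the GENCODE M21 transcripts.

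Estimated counts were rounded and tested with edgeR 4.0.16 (R 4.3.3): TMM scaling, filterByExpr, robust quasi-likelihood F test, Benjamini-Hochberg adjustment over all transcripts or genes tested, threshold 0.05. Share was tested as the transcript by genotype interaction for transcripts with a mean of at least 10 counts both in the transcript and in the rest of its gene. Members estimated at 0 in a whole group were set against a floor of 3 counts over the group, which covers counting error only. DESeq2 1.42.0, limma 3.58.1 on log2(TPM + 0.1), other scalings and filters, the replicate number as a block and each library left out were tried. The procedure was tested on simulated data. Members named are the 10 with the most counts, those called or with the smallest p in each test, and up to 3 with the most counts of each of 13 gene lists, besides those said to be chosen after their values were seen. A member that this rule names, and a marker, are not reported here. Members and lists were chosen with earlier results of these data known. Retained intron transcripts of genes of other types (341) were not analysed here.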

Additional observations from a re-analysis of the deposited data

How the results depend on the processing

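With 2 libraries a group and a common biological coefficient of variation of 0.629, only very large differences of single transcripts could pass, and 0 calls do not show that members were alike. edgeR called 0 members in level and share, also with the replicate number as a replicate block. DESeq2 called 4 higher and 10 lower in level, and 15 higher and 6 lower in share; with no filter edgeR called 16 higher and 30 lower in level. The median level difference was −0.24 over 4396 members. On the TPM scale it was 0.31, but over only the 362 members with a mean TPM of at least 0.5, where all transcripts had 0.38. With total counts it was 0.06. With 1 library left out and the filter applied anew it was −0.58 to 0.43. It was above 0 without WT replicate 1 (0.36 over 4362 of the members tested with all 4 libraries). The median share difference (−0.19) was −0.72 to 0.29 with 1 library left out. The summed share difference ranged from −1.41 to −0.11 percentage points and the median over parents from −1.92 to 0.54, the upper ends without WT replicate 1; with all counts as the denominator the summed share differed by 0.039. The share of Eif4a2-206 (log2 0.61) was −0.0521 with only protein_coding transcripts as the rest of the gene.

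Of the parent genes, edgeR called 0 with all libraries. DESeq2 called 20 higher and 14 lower, no filter 51 and 28, total counts 70 and 2 (all transcripts shifted by 0.29 with that scaling), and with 1 library left out 2 to 14 were higher and 1 to 12 lower. The replicate block gave 22 higher and 4 lower. Deviations of WT replicate 1 and DKO replicate 1 from their group means correlated at −0.15 over 10877 transcripts. With 2 libraries a group, where the deviations mirror each other, this value cannot decide whether the numbers mark pairs. A crossed block, added after seeing the data, gave 57 higher and 61 lower. The cause of these differences was not tested. Of 1316 values of 113 measures of named members under the alternatives, 1268 kept their direction and side of the threshold, 38 passed it, 9 moved past their spread and 1 reversed, counting sign changes where the value exceeded its standard error or passed a test.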
